A study of Mus musculus with 36 samples.

Results

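The response of Perk-null mouse embryonic fibroblasts to thapsigargin was examined by comparing 3 thapsigargin libraries with 3 DMSO libraries of the same genotype, 6 of the 36 RNA-seq libraries of the series. The members are the libraries with these genotype and treatment labels. All libraries came from mouse embryonic fibroblasts, cultured cells grown from mouse embryos, that were either wild type (WT) or PERK -/-, which is called Perk-null here. Cells of each genotype received DMSO (the solvent), thapsigargin, BtdCPU, halofuginone, BtdCPU with thapsigargin, or halofuginone with thapsigargin, which makes 12 groups of 3 replicates. The labels give no dose and no duration of treatment, do not say which allele removes PERK, and do not say whether replicates were separate cultures. P-values therefore measure the spread between libraries, which may be technical. No second line of either genotype is named, so a difference between genotypes and a difference between cell lines cannot be told apart. The 6 libraries of the WT DMSO and WT thapsigargin groups serve below as the reference for the response of cells that have the kinase.

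Thapsigargin blocks the SERCA pumps that load calcium into the endoplasmic reticulum (ER), and the emptied ER folds proteins poorly. Mammalian cells answer through 3 sensors in the ER membrane. PERK phosphorylates the translation factor eIF2 alpha, which slows protein synthesis and lets ATF4 be made, the factor that drives the integrated stress response (ISR). IRE1 splices the mRNA of Xbp1 and cleaves other ER-bound mRNAs, and ATF6 travels to the Golgi, where it is cut to release a transcription factor for ER chaperones. Cells without PERK keep the other two sensors and the other eIF2 alpha kinases, and the comparison asks which parts of the transcript response thapsigargin evokes in them.

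The 6 libraries held 35034352 to 36310952 counts, within the range of 32454257 to 37178107 over the series. Levels are given as CPM, counts scaled to a common library size after TMM normalisation, and changes as log2 fold changes from a model fitted to all 36 libraries. On the first principal component of the 6 libraries, with 54.6% of the variance, the thapsigargin libraries lay apart from the DMSO libraries. On the second, with 14.3%, replicate 3 of both groups lay apart from replicates 1 and 2. In these replicates 3 the share of counts from mitochondrial DNA was 3.38% (thapsigargin) and 3.44% (DMSO), against 4.24% to 4.40% in the other 4 libraries. All 16 fibroblast markers were read above the floor of 3 counts, and their summed level was 17321 to 20316 CPM in DMSO and 21908 to 27165 CPM in thapsigargin libraries. The summed level of 9 epithelial markers was at most 2.05 CPM and that of 8 endothelial markers at most 1.08 CPM. The 10 leukocyte markers summed to 7.03 to 9.79 CPM in DMSO and 11.2 to 16.6 CPM in thapsigargin libraries, mostly from Csf1r. The 9 neural and glial markers summed to 74.3 to 83.2 CPM against 111 to 133 CPM, mostly from Tubb3, and the 10 muscle markers to 2604 to 3598 CPM against 2427 to 3312 CPM, mostly from Acta2, which fibroblasts also express. The part of these markers in the results below was not tested. Esrp1, Cd3e, Tyrobp, Tie1, Emcn, Cldn5, Snap25, Sox2, Sox10, Myod1 and Myog were at 0 in all 6. In such bulk samples fewer cells of a type and less RNA per cell cannot be told apart.

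Eif2ak3, the gene of PERK itself, was examined first. Its level was 9.37, 9.67 and 10.8 CPM in the DMSO libraries and 26, 25 and 31.2 CPM in the thapsigargin libraries, so the transcript was still read and the groups did not overlap. It rose by 1.46 on the log2 scale (SE 0.19, edgeR adjusted p = 3.1e-07), and the rise differed from that of WT cells by -0.02 (edgeR adjusted p = 0.98). Its level was higher in WT cells, at 30.3, 32.4 and 30.7 CPM in DMSO and 79.1, 78.1 and 104 CPM in thapsigargin libraries. A count over the whole gene does not show whether a functional mRNA is made. The other eIF2 alpha kinases did not pass the test: Eif2ak1 (HRI) differed by -0.09, Eif2ak2 (PKR) by 0.19 and Eif2ak4 (GCN2) by -0.18.

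Thapsigargin changed 4487 of 16065 tested genes in Perk-null cells, which is 27.9% of them at an edgeR adjusted p below 0.05. Of these, 2449 (15.2% of all tested) were higher and 2038 (12.7%) lower. The median size of a called change was 0.63 on the log2 scale, 1499 called genes moved by less than 0.5, and 646 rose and 466 fell by more than 1. The median over all tested genes was 0.05. Without replicate 3 of both groups, an alternative chosen after the data were seen, 2721 genes were called, 1397 higher and 1324 lower. Without thapsigargin replicate 3 alone, 1490 genes were higher and 1776 lower.

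Among genes that averaged at least 2 in log2 CPM, did not overlap between treatments and exceeded 3 counts throughout the lower group, the largest rises were those of Bmp4 (2.77), Lrrc17 (2.63), Artn (2.56), Sdf2l1 (2.53), Dbp (2.51), I830012O16Rik (2.47), Ntn4 (2.46) and Ifit1 (2.45). They encode proteins of different kinds, among them the secreted growth factors BMP4 and artemin, the guidance protein netrin 4, an ER chaperone cofactor (Sdf2l1), the clock output factor DBP and an interferon-induced RNA-binding protein (Ifit1). I830012O16Rik was not called without DMSO replicate 3, at 2.25, and counts of Lrrc17 and Dbp can include reads of the overlapping genes Fbxl13 and Sphk2. By the same rule the largest falls were those of Dusp6 (-3.94), Egr1 (-3.81), Ctgf (-3.77), Etv5 (-3.63), Sema7a (-3.60), Cx3cl1 (-3.36), Hbegf (-3.27) and Egr3 (-3.07). Dusp6, Egr1, Etv5, Hbegf and Egr3 are genes that growth factor signalling through ERK switches on, and Ctgf is a target of YAP and of TGF-beta. The groups did not overlap in CPM for 46.6% of all tested genes.

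**Figure D1:**
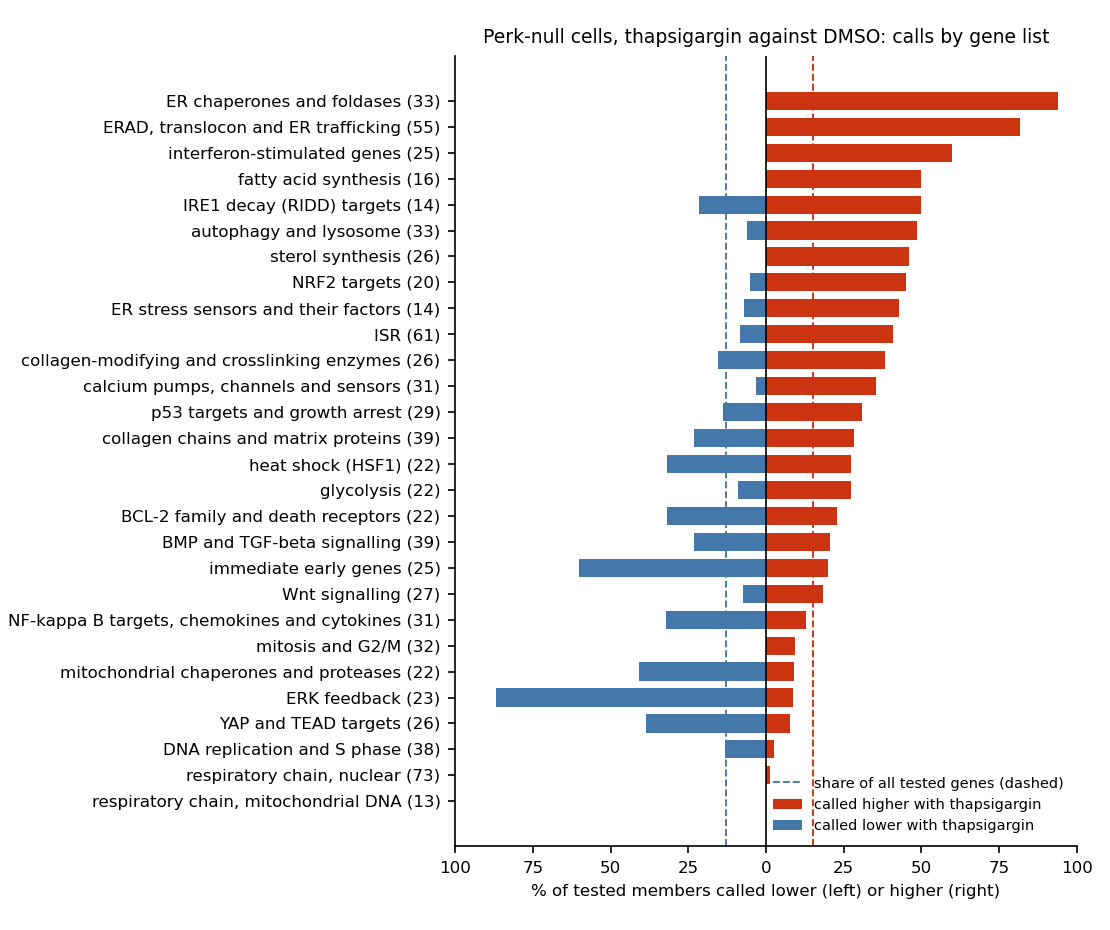
Share of the tested members of each gene list (number tested in brackets) that thapsigargin raised (red, to the right) or lowered (blue, to the left) in Perk-null cells, in percent (dashed lines mark the shares over all tested genes, 15.2% higher and 12.7% lower). ER chaperones and ERAD genes have the longest red bars, and ERK feedback and immediate early genes the longest blue bars.

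Genes of ER protein folding and of the transcript response downstream of ATF6 and XBP1 come first. A promoter element read by ATF6 together with NF-Y, the ER stress response element (ERSE), was searched as CCAAT, any 9 bases and CCACG on both strands of the 250 bases before each gene's annotated start. It was found in 0.130% of 27025 genes with a promoter window and in 7 of the 25 ER chaperone and foldase genes that have one. The stretches around it in 6 of these genes are shown as examples, and the other gene with a match is Canx. Sequences are from RefSeq on GRCm38.p6, written 5′ to 3′ on the strand of the gene, with the element in capitals (in reverse where it starts with CGTGG).
Hspa5, chr2:34772004-34772063, plus strand: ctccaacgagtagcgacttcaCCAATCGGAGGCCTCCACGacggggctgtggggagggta
Hsp90b1, chr10:86705513-86705572, minus strand: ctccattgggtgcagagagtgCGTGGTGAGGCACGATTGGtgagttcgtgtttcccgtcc
Calr, chr8:84847055-84847114, minus strand: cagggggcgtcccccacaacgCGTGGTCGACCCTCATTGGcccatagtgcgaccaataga
Creld2, chr15:88819499-88819558, plus strand: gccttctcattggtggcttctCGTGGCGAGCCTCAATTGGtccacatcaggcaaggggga
Dnajc3, chr14:118937806-118937865, plus strand: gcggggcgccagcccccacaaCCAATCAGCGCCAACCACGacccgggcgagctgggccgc
Pdia6, chr12:17266470-17266529, plus strand: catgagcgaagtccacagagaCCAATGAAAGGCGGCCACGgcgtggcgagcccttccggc

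Of 33 ER chaperones and foldases, 31 rose in Perk-null cells and 0 fell, with a median of 0.91. The shares over all tested genes were 15.2% and 12.7%. Hspa5 (BiP, the main ER chaperone) stood at 1494, 1670 and 1540 CPM in DMSO and at 6364, 5910 and 6202 CPM in thapsigargin libraries. Every treated library lay far above every control, and the rise was 1.97 (SE 0.15, edgeR adjusted p = 7.0e-12). Its counts can include reads of the overlapping gene Rabepk. The plot of levels by library shows these values. Hsp90b1 (GRP94, the ER form of HSP90) stood at 1960, 2154 and 1835 CPM against 5138, 5006 and 4995 CPM. All treated libraries lay above all controls, a rise of 1.35 (SE 0.12, edgeR adjusted p = 5.4e-10). Sdf2l1 stood at 14.7, 16.4 and 23.8 CPM against 99.6, 98 and 119 CPM, again without overlap. The lectin chaperones calreticulin (Calr) and calnexin (Canx) rose by 1.07 and 0.68. Ero1lb, an oxidase that feeds disulfide formation, rose by 2.22, and Fkbp14, a prolyl isomerase acting on collagen, by 2.04. The members that did not pass were Ero1l (0.48, edgeR adjusted p = 0.060), the paralogue of Ero1lb, and Txndc5 (0.18). Ero1l passed with no filter (0.45) and when the fit held only the compared groups (0.44). Creld2, Dnajc3 and Pdia6, named here for their promoters after their values were seen, rose by 1.81, 1.39 and 1.22. The median was 1.35 over the 7 genes with an ERSE match and 0.74 over the 18 with a window but no match, 17 of which rose. Of 20 tested genes of any kind with an ERSE match, 10 rose and 0 fell, and 7 of these 10 are in this list.

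Of 55 genes of ER-associated degradation (ERAD), the translocon and ER trafficking, 45 rose and 0 fell, with a median of 0.61. The shares over all tested genes were 15.2% and 12.7%. Herpud1, a scaffold of the ERAD complex, stood at 49.3, 55 and 63.2 CPM in DMSO and at 215, 202 and 238 CPM in thapsigargin libraries, a rise of 1.97. Syvn1, the ubiquitin ligase HRD1 of that complex, rose by 1.75, and Vimp (selenoprotein S, its partner) by 1.66. Dnajb9 (ERdj4), a co-chaperone and a classical XBP1 target, stood at 11.3, 10.5 and 10.9 CPM against 33.3, 30.3 and 35.8 CPM. Its groups were far apart, and the rise was 1.60 (SE 0.16, edgeR adjusted p = 2.5e-09). The translocon channel gene Sec61a1 rose by 0.78, while Sec61b, at 0.44, did not pass. Sec61b passed with a replicate block (0.45), with no filter (0.42) and when the fit held only the compared groups (0.41).

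Among 14 genes of the ER stress sensors and related factors, 6 rose and 1 fell, beside 15.2% and 12.7% of all tested genes. Xbp1, the factor spliced by IRE1, stood at 58.3, 65.8 and 59.97 CPM in DMSO and at 145, 156 and 158 CPM in thapsigargin libraries. It rose by 1.32 (SE 0.14), and its rise differed from that in WT by -0.33, which did not pass (edgeR adjusted p = 0.19). It passed without WT DMSO replicate 2 (-0.55) and with a replicate block (-0.36, edgeR adjusted p = 0.026). Splicing cannot be read from counts per gene. The sensor genes themselves did not pass: Atf6 differed by -0.23 and Ern1 (IRE1) by -0.02, whereas in WT cells they rose by 2.24 and 1.5. Atf6 was called lower (-0.26, edgeR adjusted p = 0.042) when the fit held only the compared groups. The difference between genotypes passed for both, at -2.47 for Atf6 (edgeR adjusted p = 1.1e-09) and -1.52 for Ern1 (edgeR adjusted p = 7.7e-05). Creb3l2, a relative of ATF6 that acts on secretory genes, rose by 1.67, and Crebrf by 1.27. The fall was that of Bak1 (-0.28), a BCL-2 family protein listed here because it binds IRE1. It was not called without DMSO replicate 1 (-0.27) or 2 (-0.26), or without thapsigargin replicate 1 (-0.27) or 3 (-0.31).

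IRE1 also degrades mRNAs at the ER, a process called RIDD. Of 14 tested RIDD targets, 7 were higher and 3 lower in Perk-null cells, against 2 higher and 11 lower in WT cells, where 24.9% of all tested genes were higher and 22.7% lower. Scara3, a scavenger receptor, stood at 40.5, 38.5 and 35.2 CPM in DMSO and 21.1, 21.8 and 25.5 CPM in thapsigargin libraries. It fell by 0.74 without overlap of the groups (edgeR adjusted p = 0.0049). In WT cells it changed by -3.93, so the responses differed by 3.19 (edgeR adjusted p = 1.5e-09). Hgsnat, a lysosomal enzyme, fell by 0.75. Itgb2, an integrin chain, fell by 1.23 from levels of 1.37 CPM or less and was not called without thapsigargin replicate 1 (-1.03) or 3 (-0.89). Bloc1s1, a standard readout of RIDD, stood at 27.2, 29.7 and 22.6 CPM against 25.9, 33.7 and 25.5 CPM. These groups overlapped (0.10, edgeR adjusted p = 0.80), whereas in WT the gene fell by 1.70, a difference of 1.79 (edgeR adjusted p = 2.0e-05). Its counts can include reads of Rdh5. Tapbp, which loads peptides onto MHC class I, rose by 0.76, and Stt3a, of the glycosylation complex, by 0.72. Pmp22, a myelin membrane protein, moved the opposite way from WT: it rose by 1.63 in Perk-null cells and fell by 0.53 in WT cells. The responses of 11 of the 14 genes differed from WT, all with a higher value in Perk-null cells, where 19.5% of all tested genes did so. The median of the list was 0.25, and 0.13 without thapsigargin replicate 3.

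ISR genes are normally driven by PERK under ER stress. ATF4 with a C/EBP partner binds an element searched here as TGATGNAA on both strands of the same window, which 3.91% of genes with a window and 14 of 48 ISR genes hold. Chac1, Asns and Atf3 are shown because each holds a match and they part ways in the values below. The element is in capitals, as its reverse complement in Chac1 and Atf3.
Chac1, chr2:119351023-119351082, plus strand: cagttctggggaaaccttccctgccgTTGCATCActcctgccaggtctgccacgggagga
Asns, chr6:7693210-7693269, minus strand: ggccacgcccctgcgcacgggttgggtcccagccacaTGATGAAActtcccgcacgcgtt
Atf3, chr1:191183410-191183469, minus strand: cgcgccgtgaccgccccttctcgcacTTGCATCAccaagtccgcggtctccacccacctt

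Of 61 ISR genes, 25 rose, 5 fell and 31 did not pass in Perk-null cells, with a median of 0.31. Of all tested genes 15.2% rose and 12.7% fell in Perk-null cells, so the falls of the list lay below that share. In WT cells 57 rose and 1 fell, with a median of 1.70, where 24.9% of all tested genes rose and 22.7% fell. The response differed from WT for 52 genes, each lower in Perk-null than in WT cells, where 18.6% of all tested genes did so. The number that fell in Perk-null cells was 8 without thapsigargin replicate 2 and 3 without replicate 3 of both groups. Ddit3, the gene of the stress factor CHOP, stood at 22.2, 21.6 and 18.5 CPM in DMSO and at 47.4, 60.3 and 35.8 CPM in thapsigargin libraries. It rose without overlap by 1.20 (SE 0.21, edgeR adjusted p = 4.3e-05), 3.46 less than in WT cells, a difference written -3.46 in the model (edgeR adjusted p = 1.9e-10). Reads of the overlapping gene Mbd6 can be among these counts.

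Chac1, which breaks down glutathione, stood at 10.1, 11.4 and 8.66 CPM against 27.7, 28.2 and 22.5 CPM and rose by 1.38 (edgeR adjusted p = 5.3e-06). Trib3, a pseudokinase that ATF4 and CHOP induce, stood at 14, 17.4 and 9.52 CPM against 42, 48.5 and 30.4 CPM and rose by 1.56. For both genes replicate 3 was the lowest library of its group. Asns, asparagine synthetase, stood at 457, 459 and 380 CPM against 510, 497 and 376 CPM. Its groups overlapped (0.10, edgeR adjusted p = 0.55), and its response was -1.83 relative to WT (edgeR adjusted p = 4.2e-11). Psat1, an enzyme of serine synthesis, likewise overlapped at 642, 673 and 615 CPM against 718, 741 and 616 CPM.

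Atf4 itself stood at 533, 646 and 566 CPM in DMSO and 725, 781 and 656 CPM in thapsigargin libraries. Each treated library was above each control, and the rise was 0.31 (SE 0.11, edgeR adjusted p = 0.029). It did not pass without DMSO replicate 1 (0.25) or 3 (0.25), or without thapsigargin replicate 1 (0.30) or 2 (0.20). Atf3, a further stress factor of the ISR, rose by 0.78, from between 2.19 and 2.92 to between 3.90 and 4.96 CPM. It was not called without DMSO replicate 1 (0.67) or thapsigargin replicate 2 (0.65), and its response was -5.39 relative to WT (edgeR adjusted p = 7.2e-13).

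The amino acid carriers of the list behaved differently from one another. Slc3a2, the heavy chain shared by several amino acid exchangers, stood at 361, 386 and 473 CPM in DMSO and 1416, 1623 and 1770 CPM in thapsigargin libraries. It rose by 1.98 (SE 0.16, edgeR adjusted p = 3.8e-11), and its response was -0.81 relative to WT. Slc6a9, the glycine transporter GlyT1, rose by 1.77. Fgf21, a hormone induced by ATF4, had the largest fitted rise of the list (3.02) at 0.164 CPM or less in DMSO and 0.352 to 0.561 CPM in thapsigargin libraries, and was not called without DMSO replicate 2 (2.47) or 3 (2.42) or thapsigargin replicate 3 (2.83). Slc1a5, a glutamine carrier, fell by 0.87. The other falls named by the rule were those of Trib1, a pseudokinase related to Trib3 (-1.48), Stc2, a secreted glycoprotein (-0.86), and Got1, the cytosolic aspartate aminotransferase (-0.48), which was not called without replicate 3 of both groups (-0.42). In WT cells Stc2 rose by 2.94 and Got1 by 1.82, and for Stc2 the difference between genotypes was -3.80 (edgeR adjusted p = 2.3e-11).

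**Figure D2:**
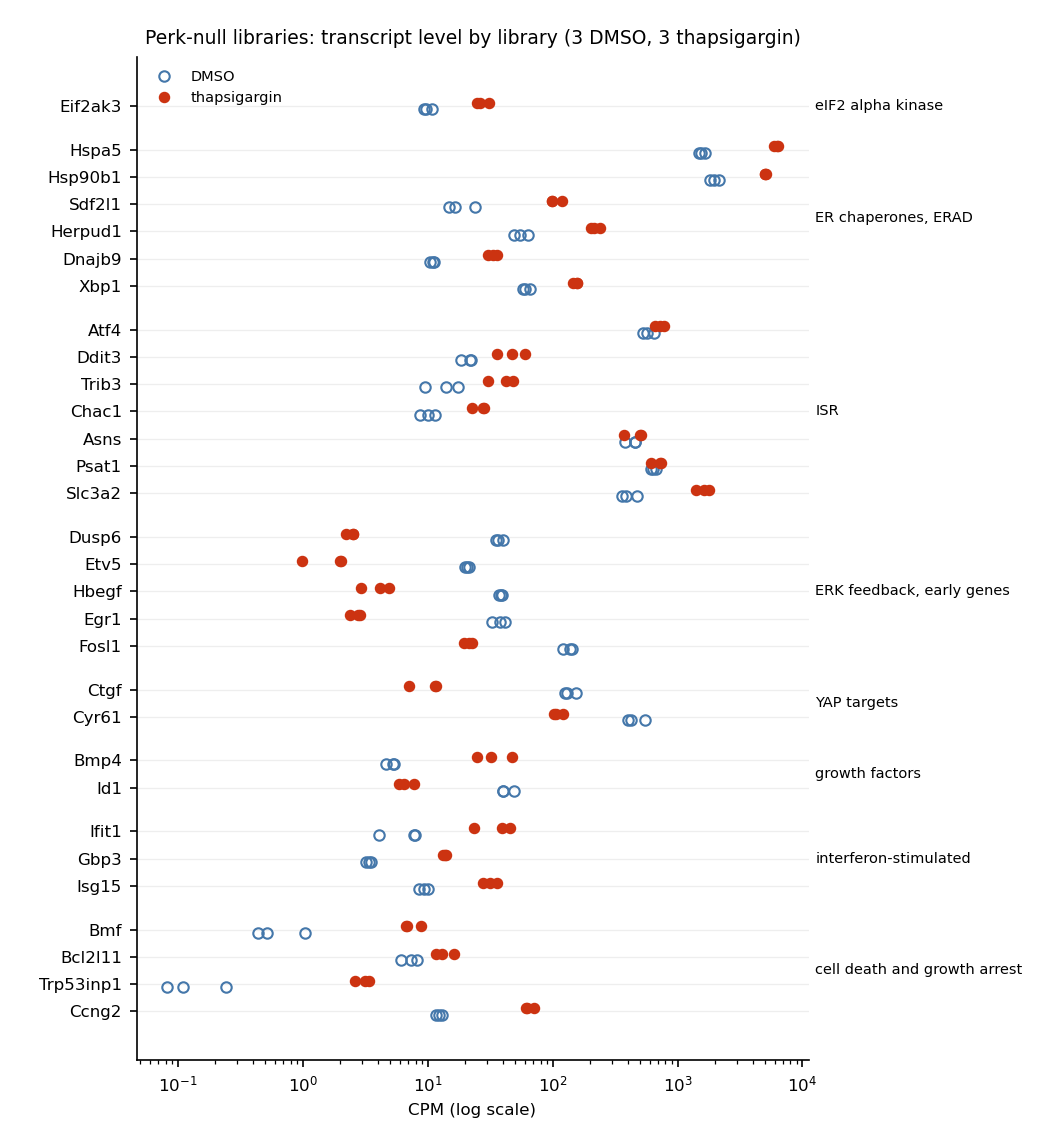
Level of selected genes in each Perk-null library, in CPM on a log axis, with 3 DMSO libraries as open blue circles and 3 thapsigargin libraries as filled red circles, grouped by role. ER genes lie to the right of their controls and ERK-dependent genes to the left without overlap, while Asns and Psat1 overlap.

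Genes that ERK signalling switches on fell together. Of 23 genes of ERK feedback (phosphatases, Sprouty and Spred inhibitors, ETS factors and ligands), 20 fell and 2 rose, with a median of -2.02. The list also fell in WT cells, with 15 lower and 1 higher and a median of -0.96. Of all tested genes 12.7% fell in Perk-null and 22.7% in WT cells. Dusp6, the phosphatase that inactivates ERK, stood at 40.1, 35.2 and 36.3 CPM in DMSO and at 2.22, 2.51 and 2.51 CPM in thapsigargin libraries. It fell by 3.94 (SE 0.20, edgeR adjusted p = 1.6e-15), more than in WT cells, with a difference of -2.04 (edgeR adjusted p = 1.7e-07). Counts of Dusp6 can include those of the overlapping gene Gm34921. Etv5, an ETS factor, stood at 21.4, 19.98 and 20.5 CPM against 1.98, 2.02 and 0.988 CPM. It fell by 3.63, and its response differed from that of WT cells, where it did not pass (0.28), by -3.92 (edgeR adjusted p = 2.2e-11). Hbegf, a ligand of the EGF receptor, fell by 3.27, and the phosphatases Dusp5 and Dusp4 fell by 2.78 and 2.64. Dusp2, a nuclear ERK phosphatase, fell by 4.34 from 1.53 to 1.82 CPM to at most 0.163 CPM. The rises were those of Dusp1, from 20.02, 17.7 and 20.3 to 46, 48.3 and 41.7 CPM (1.23), and Dusp10 (0.69), phosphatases that act mainly on the stress kinases JNK and p38. The response differed from WT with a lower value for 16 genes and with a higher value for 2. Of all tested genes 18.6% and 19.5% did so.

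Of 25 immediate early genes, 15 fell and 5 rose in Perk-null cells, with a median of -0.60. In WT cells 9 fell and 9 rose. Of all tested genes 12.7% fell and 15.2% rose in Perk-null cells, and 22.7% fell and 24.9% rose in WT cells. Egr1 is a zinc finger factor made within minutes of growth factor signalling. In Perk-null cells it stood at 38, 32.8 and 41.6 CPM in DMSO and at 2.87, 2.37 and 2.75 CPM in thapsigargin libraries. It fell by 3.81 (SE 0.25, edgeR adjusted p = 5.8e-13), and more than in WT, by -1.56 (edgeR adjusted p = 0.00027). Fosl1, the AP-1 subunit FRA1, stood at 139, 122 and 144 CPM against 22.6, 21.3 and 19.5 CPM. It fell by 2.67 and did not pass in WT cells (-0.15), a difference of -2.52 (edgeR adjusted p = 1.1e-09). Reads of Ccdc85b can be among its counts. Egr2 and Fos fell by 2.59 and 1.94 from levels of 2.38 CPM or less. Klf2 rose by 1.54, Jund by 0.73 and Fosl2 by 0.67. Without thapsigargin replicate 2 the number of rises was 3.

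YAP and TEAD targets, which respond to cell spreading and tension, held 10 falls and 2 rises among 26 genes. The shares over all tested genes were 12.7% and 15.2%. Ctgf, a matrix-associated growth regulator, stood at 131, 126 and 154 CPM in DMSO and at 11.4, 11.6 and 7.05 CPM in thapsigargin libraries, a fall of 3.77 (SE 0.35, edgeR adjusted p = 8.8e-10). Its response was -2.28 relative to WT (edgeR adjusted p = 0.00015). The related gene Cyr61 fell by 2.06, Ankrd1 by 1.60 and Fjx1 by 1.23. The rises were those of Tgfb2 (1.53) and of Igfbp3 (2.43), which was read at only 0.0269 to 0.164 CPM in DMSO and at 0.461 to 0.709 CPM in thapsigargin libraries.

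Growth factor genes of the BMP and TGF-beta families moved in both directions. Of 39, 8 were higher and 9 lower (5 lower without replicate 3 of both groups), beside 15.2% and 12.7% of all tested genes. Bmp4 stood at 4.62, 5.26 and 5.35 CPM in DMSO and at 24.9, 31.9 and 47.3 CPM in thapsigargin libraries. The treated libraries differed widely from one another but all lay above the controls, and the rise was 2.77 (SE 0.34, edgeR adjusted p = 1.3e-07). In WT cells Bmp4 averaged 0.109 CPM in DMSO and 0.199 CPM in thapsigargin libraries, and the difference between genotypes was 1.90 (edgeR adjusted p = 0.13). It passed with DESeq2 (1.86, adjusted p = 0.027) and with no filter (1.90, edgeR adjusted p = 0.015). Gdf5, a related ligand, rose by 2.91 from 0.276 to 0.645 CPM to between 2.56 and 5.10 CPM. Tgfbi, a matrix protein that TGF-beta induces, rose by 1.77. Id1, which BMP signalling normally raises, fell from 40.4, 39.95 and 48.7 CPM to 7.75, 6.41 and 5.90 CPM, a change of -2.68. The inhibitory Smad7 fell by 1.10. Inhbb, an activin subunit, fell by 1.77 with overlapping groups of at most 0.753 CPM, and was not called without DMSO replicate 3 (-1.01) or thapsigargin replicate 1 (-1.89) or 2 (-1.26). Of 27 Wnt genes 5 rose and 2 fell, beside 15.2% and 12.7% of all tested genes, with 1 fall when DMSO replicate 3 or thapsigargin replicate 1 or 3 was left out. The ligand gene Wnt9a rose by 2.35, the transcription factor gene Tcf7l1 by 1.33 and the receptor gene Fzd2 by 1.18, while the inhibitor gene Dkk2 fell by 1.25.

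Regulators of cell death and growth arrest changed in a mixed pattern. Bmf, a BH3-only protein that promotes apoptosis, stood at 0.519, 0.441 and 1.05 CPM in DMSO and at 6.86, 6.76 and 8.86 CPM in thapsigargin libraries. It rose by 3.48 (SE 0.53, edgeR adjusted p = 5.5e-06), whereas in WT it fell by 2.28, a difference of 5.75 (edgeR adjusted p = 9.8e-07). The WT values were low, at 1.11, 1.32 and 0.464 CPM in DMSO and 0.0928, 0.270 and 0.222 CPM in thapsigargin libraries. At these levels Bmf lay outside the naming rule for interactions. Bcl2l11 (BIM), of the same class, rose by 0.91 and fell by 1.09 in WT, a difference of 2.01. Bik, also of this class, rose by 2.20 at levels of at most 0.427 CPM and was called in none of the fits without DMSO replicate 1 (2.41), 2 (2.11) or 3 (2.06), or thapsigargin replicate 1 (2.22) or 3 (1.84). The survival genes Bcl2l1 (BCL-XL) and Mcl1 fell by 0.83 and 0.65. Bcl2 fell by 2.74 at levels of 0.780 CPM and less. Over the BCL-2 family and death receptors, 5 of 22 rose and 7 fell, beside 15.2% and 12.7% of all tested genes. The number of rises was 3 when DMSO replicate 1 or 3, or thapsigargin replicate 1 or 3, was left out.

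Of 29 p53 targets and growth arrest genes, 9 rose and 4 fell (2 without replicate 3 of both groups). For comparison, 15.2% of all tested genes rose and 12.7% fell. Trp53inp1, which promotes arrest and autophagy, stood at 0.0819, 0.110 and 0.242 CPM in DMSO and at 3.36, 2.62 and 3.15 CPM in thapsigargin libraries. Its rise of 4.36 (SE 0.40, edgeR adjusted p = 6.3e-10) starts from a low level and was larger than in WT by 3.10 (edgeR adjusted p = 9.4e-06). Gas1, a membrane protein of arrested fibroblasts, stood at 113, 93.9 and 99.8 CPM against 231, 275 and 254 CPM. It rose by 1.31 and fell by 1.98 in WT, a difference of 3.29. Bbc3 (PUMA) rose by 1.25, Sesn1 by 1.07 and Cdkn1a (p21) by 0.98, whereas Plk3, a stress kinase, fell by 2.04 and Aen, a nuclease induced by p53, by 1.52. Of 38 DNA replication and S phase genes 1 was higher and 5 lower, and of 32 mitotic genes 3 were higher and 0 lower. Without DMSO replicate 3 the number higher was 0 and 1, and without thapsigargin replicate 1 the number of higher replication genes was 0. The replication and mitosis counts lay near or below the shares over all tested genes. Ccne1 (cyclin E1) fell by 0.71 and Ccnb2 (cyclin B2) rose by 0.50.

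Interferon-stimulated genes are induced by factors of the STAT and IRF families. The element bound by interferon-activated factors was searched as TTTC, any 2 bases and TTTC on both strands, a search added after the values were seen. It was found in 3.46% of genes with a window and in 10 of 23 interferon-stimulated genes, 7 of which rose, while 8 of the 13 without it rose. Of 345 tested genes of any kind with the element 63 rose and 39 fell. These counts are close to the shares over all tested genes, 15.2% and 12.7%. The stretches of 4 genes that rose are shown with their matches in capitals, in reverse for Isg15, where 3 matches overlap.
Ifit1, chr19:34640779-34640838, plus strand: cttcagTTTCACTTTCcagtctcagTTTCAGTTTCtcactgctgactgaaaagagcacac
Isg15, chr4:156200850-156200909, minus strand: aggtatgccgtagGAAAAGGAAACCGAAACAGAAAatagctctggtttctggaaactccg
Gbp3, chr3:142559980-142560039, plus strand: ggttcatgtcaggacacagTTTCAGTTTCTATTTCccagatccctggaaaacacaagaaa
Stat2, chr10:128270251-128270310, plus strand: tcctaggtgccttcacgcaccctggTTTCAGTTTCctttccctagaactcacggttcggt

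Of 25 interferon-stimulated genes, 15 rose and 0 fell, with a median of 1.23. In WT cells 17 rose, with a median of 1.10, where 24.9% of all tested genes rose. Of all tested genes 19.5% had a higher and 18.6% a lower response in Perk-null than in WT cells. In this list the response was called higher for 2 genes and lower for 1. The latter number was 0 without DMSO replicate 1 or 3 or any single thapsigargin library of Perk-null cells, 0 without WT DMSO replicate 2 or 3 or WT thapsigargin replicate 1 or 2, 2 without WT DMSO replicate 1 and 3 without WT thapsigargin replicate 3. Ifit1, which binds foreign RNA, stood at 7.76, 7.91 and 4.09 CPM in DMSO and at 39.4, 45.4 and 23.4 CPM in thapsigargin libraries. Replicate 3 was the lowest of both groups, and the rise was 2.45 (SE 0.64, edgeR adjusted p = 0.0040). Gbp3, a guanylate-binding protein, stood at 3.5, 3.2 and 3.36 CPM against 13.2, 13.7 and 14.1 CPM, and the groups were far apart (2.03, edgeR adjusted p = 0.00064). Isg15, a ubiquitin-like protein named for its promoter after its values were seen, rose by 1.76, and Stat2, a factor of interferon signalling, by 1.31. Oasl2 rose by 2.13 but was not called without DMSO replicate 3 (1.82). Ifit3, related to Ifit1, rose by 1.97 and lost its call without any single library of either group, at 1.77 to 2.11.

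Targets of NF-kappa B and cytokine genes gave other counts: of 31, 10 fell and 4 rose, against 21 that rose and 1 that fell in WT cells. Without thapsigargin replicate 3 the number that rose was 2. Of all tested genes 15.2% rose and 12.7% fell in Perk-null cells, and 24.9% rose and 22.7% fell in WT cells. Lif, a cytokine of the IL-6 family, stood at 7.05, 9.04 and 9.09 CPM in DMSO and at 1.98, 1.99 and 1.68 CPM in thapsigargin libraries. It fell by 2.15 and rose by 1.26 in WT, a difference of -3.41 (edgeR adjusted p = 1.4e-12). Ptgs2 (COX-2), which makes prostaglandins, stood at 246, 241 and 260 CPM against 109, 99.2 and 98.6 CPM. It fell by 1.29 and rose by 1.47 in WT, a difference of -2.76. Nfkbie, an inhibitor of NF-kappa B, fell by 1.22. Tnfaip3 (A20), a brake on NF-kappa B, and Csf1, a macrophage growth factor, fell by 1.40 and 1.39. The chemokines Cxcl10 and Ccl5 rose by 1.66 and 0.89.

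Of 26 sterol synthesis genes 12 rose and 0 fell, where WT cells had 0 higher and 17 lower. The shares over all tested genes were 15.2% higher and 12.7% lower in Perk-null cells, and 24.9% and 22.7% in WT cells. The number of rises was 6 without DMSO replicate 1, 7 without DMSO replicate 2, 7 without thapsigargin replicate 2 and 5 without thapsigargin replicate 3, and 6 without replicate 3 of both groups. Fdps, which makes farnesyl diphosphate, stood at 106, 131 and 123 CPM in DMSO and at 204, 207 and 245 CPM in thapsigargin libraries. It rose by 0.87 without overlap (edgeR adjusted p = 0.00017), and its response was 1.09 above that of WT (edgeR adjusted p = 0.00046). Tm7sf2, Ebp and Pmvk rose by 1.13, 0.78 and 0.70. The response differed from WT for 22 of the 26 genes, all with a higher value in Perk-null cells, beside 19.5% of all tested genes. Of 16 fatty acid synthesis genes 8 rose and 0 fell. Acss2, which makes acetyl-CoA from acetate, stood at 5.16, 6.39 and 6.56 CPM against 15.1, 15 and 18.2 CPM and rose by 1.41, 2.24 above WT (edgeR adjusted p = 4.3e-05). Reads of Acss2os can be among its counts. The desaturases Fads1, Scd2 and Fads2 rose by 0.83, 0.75 and 0.66.

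Matrix genes moved in both directions, and their counts stand beside 15.2% of all tested genes that rose and 12.7% that fell. Of 39 collagen chains and matrix proteins 11 rose and 9 fell, with 6 rises when thapsigargin replicate 3 and 5 falls when thapsigargin replicate 1 was left out. The list median was 0.25, and 0.11 without thapsigargin replicate 3. Col1a2, a chain of collagen I, stood at 5597, 5168 and 6200 CPM in DMSO and at 8219, 7850 and 10102 CPM in thapsigargin libraries. It rose by 0.63 and fell by 0.78 in WT, a difference of 1.40 (edgeR adjusted p = 4.5e-08). Col1a1, its partner, rose by 0.60 but was not called without DMSO replicate 2 (0.47) or thapsigargin replicate 3 (0.39). Col11a1 rose by 1.59, Nid2 by 1.29 and Col3a1 by 0.79. Fbln2, an elastic fibre protein, fell from 645, 578 and 635 to 211, 200 and 199 CPM, a change of -1.61, and Col8a1 and Nid1 fell by 0.92 and 0.60. Thbs1, a matrix glycoprotein and YAP target, fell by 1.13 and was not called without thapsigargin replicate 1 (-0.94). Of 26 collagen-modifying enzymes 10 rose and 4 fell, with the prolyl hydroxylase P3h1 (1.38) and the collagen chaperone Serpinh1, or HSP47 (0.93), among the rises, and P3h4 (-1.22) and the crosslinking enzyme Loxl3 (-0.67) among the falls. Of the 16 fibroblast markers, which share collagen genes with this list, 7 rose and 1 fell, among them Pdgfra (1.12) and Vim (-0.34, not called without replicate 3 of both groups, at -0.30), with 2 falls without thapsigargin replicate 2. Their part in the matrix results was not tested.

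Calcium handling genes held 11 rises and 1 fall among 31, beside 15.2% and 12.7% of all tested genes. The number of rises was 6 without thapsigargin replicate 3. Atp2a2 (SERCA2), the pump that thapsigargin blocks, stood at 572, 532 and 593 CPM in DMSO and at 728, 662 and 749 CPM in thapsigargin libraries. It rose by 0.33 but was not called without thapsigargin replicate 3 (0.25). Atp2a3 (SERCA3) had a fitted rise of 3.2 at levels of 0.507 CPM or less and was not called without DMSO replicate 1 (2.67) or 3 (2.62) or thapsigargin replicate 3 (2.40). Nucb2, a calcium-binding protein, rose by 1.43, the transcription factor Nfatc4 by 1.18 and the plasma membrane pump Atp2b4 by 0.95. The fall was that of Stim2, the number of falls being 2 without DMSO replicate 2 or thapsigargin replicate 2. Stim2 is a sensor of ER calcium and fell from 47.8, 49.3 and 51.2 to 25.1, 23 and 23.8 CPM (-1.04).

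Of 73 nuclear genes of the respiratory chain 1 was called, Ndufv3 (0.71), and 0 of 13 encoded in mitochondrial DNA. Of all tested genes 27.9% were called in Perk-null cells. In the nuclear list 38 genes fell in WT cells, where 22.7% of all tested genes did. The response of 31 differed, all with a higher value in Perk-null cells, beside 19.5% of all tested genes. Mitochondrial chaperones, proteases and import proteins held 9 falls and 2 rises among 22 genes, with 1 rise without any single library of either group. In Perk-null cells 12.7% of all tested genes fell and 15.2% rose, so the rises of the list lay below that share. Htra2, a protease of the intermembrane space, stood at 189, 225 and 199 CPM in DMSO and at 114, 137 and 100 CPM in thapsigargin libraries, a fall of 0.81. Its counts can include reads of Aup1 and Loxl3. The import receptors Tomm40 and Tomm20 fell by 0.61 and 0.56 and the chaperonin Hspd1 (HSP60) by 0.58, the last with reads of Hspe1 possibly among its counts.

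Other stress programmes gave partial changes, set here beside 15.2% of all tested genes that rose and 12.7% that fell. Of 22 cytosolic heat shock genes 6 rose and 7 fell, with Cryab, a small chaperone, leading the rises (1.54) and Hspa4 (HSP110 family) the falls (-0.76). The inducible HSP70 genes Hspa1a and Hspa1b, near-identical copies whose reads may be split, rose by 1.11 and 1.09. Without replicate 3 of both groups the number of falls was 2. Among 33 autophagy and lysosome genes 16 rose and 2 fell, led by the cargo receptors Calcoco1 (1.40) and Nbr1 (1.17) and the initiation factor Atg13 (1.11). Sqstm1 (p62), a further receptor, rose by 0.85. Of 20 NRF2 targets 9 rose and 1 fell, with 5 rises when thapsigargin replicate 3 was left out and 0 falls without DMSO replicate 1 or 3 or thapsigargin replicate 1 or 2. The glutathione transferases Gsta4 and Gstm1 rose by 1.40 and 1.20 and heme oxygenase (Hmox1) by 0.98. Of 22 glycolysis genes 6 rose and 2 fell. Hk2, the hexokinase of growing cells, stood at 52.7, 48.7 and 68.6 CPM in DMSO and at 19.9, 20.9 and 26.1 CPM in thapsigargin libraries. It fell by 1.35, and Pfkfb3, which sets glycolytic flux, by 0.77. Slc16a3, a lactate exporter, rose by 1.77, Txnip, a suppressor of glucose uptake that overlaps Gm15441, by 1.67 and Pdk1, which restrains pyruvate oxidation, by 1.20.

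The responses of both genotypes were compared gene by gene by the interaction of genotype and thapsigargin, which was called for 6124 genes (38.1%). WT cells changed 7647 genes (47.6%). Of the 2449 genes that rose in Perk-null cells, 819 also rose in WT cells, 620 fell there and 1010 did not pass there, and the interaction was not called for 995. Of the 2038 that fell, 547 also fell in WT cells, 615 rose there and 876 did not pass, and the interaction was not called for 692. The 620 and the 615 genes with opposite calls all passed the interaction test.

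**Figure D3:**
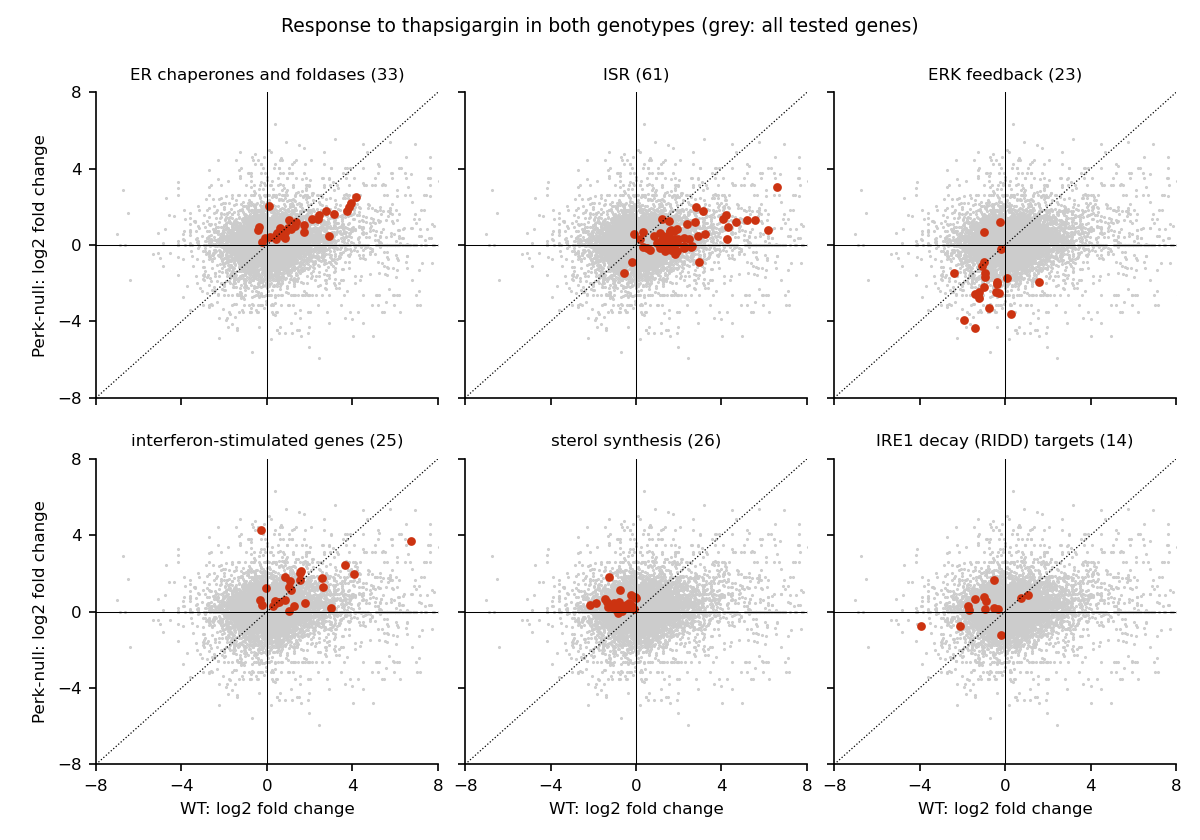
Log2 fold change with thapsigargin in WT cells (x axis) and Perk-null cells (y axis) for all tested genes (grey) and the members of 6 lists (red, number in brackets); the dotted line marks equal changes, and 15 tested genes lie outside the axes at 8. Most ISR genes lie below the line, ER chaperones on both sides of it, most ERK feedback genes below 0 on the y axis, and sterol genes and most RIDD genes above the line.

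The most positive interactions by the naming rule were those of 5430435G22Rik (3.85), Mfap2 (3.56), Gas1 (3.29) and Ccng2 (3.2). Mfap2, a microfibril protein, was not called in Perk-null cells (0.76, edgeR adjusted p = 0.064) and changed by -2.80 in WT cells. In Perk-null cells it passed with DESeq2 (0.73), no filter (0.73), a replicate block (0.77) and only the compared groups in the model (0.72). Ccng2, an atypical cyclin of quiescent cells, stood at 12.4, 13 and 11.7 CPM in Perk-null DMSO and 61.1, 61.8 and 70.3 CPM in Perk-null thapsigargin libraries. It rose by 2.38 and fell by 0.82 in WT cells. Lrrc17, Dbp and Ntn4, from the largest rises, did not pass in WT cells, and their responses differed by 2.69, 2.83 and 2.77.

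The most negative interactions were those of Mmp13 (-6.14), Arid5a (-5.49), Atf3 (-5.39) and Avil (-5.17). Mmp13, a collagenase, stood at 31.2, 34.2 and 31.3 CPM in Perk-null DMSO and at 7.21, 6.60 and 4.65 CPM in Perk-null thapsigargin libraries. It fell by 2.39 and rose by 3.75 in WT cells. Arid5a, which stabilises cytokine mRNAs, fell by 2.25 from 20.6, 26.2 and 23 CPM to 4.06, 5.18 and 5.42 CPM, and rose by 3.24 in WT cells. Avil, an actin-binding protein, did not pass in Perk-null cells (0.65), except with no filter (0.62). Among ER genes with a smaller rise than in WT, the interaction was -1.88 for Hspa5, -1.63 for Sdf2l1, -2.38 for Herpud1 and -2.29 for Dnajb9. Of the 33 ER chaperones 13 had a lower and 6 a higher response than in WT, Fkbp14 (1.96) being among the higher. Of all tested genes 18.6% had a lower and 19.5% a higher response, so the number higher lay near that share.

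The levels reached with thapsigargin alone can be set beside those in Perk-null cells given thapsigargin with a second compound, with no test of the difference. Hspa5 lay between 5910 and 6364 CPM with thapsigargin, between 9609 and 11977 CPM with BtdCPU and thapsigargin, and between 12760 and 15730 CPM with halofuginone and thapsigargin. Ddit3 lay between 35.8 and 60.3 CPM, against 374 to 413 CPM and 195 to 252 CPM. Dusp6 lay between 2.22 and 2.51 CPM, against 3.37 to 3.95 CPM with BtdCPU and 14.3 to 19.4 CPM with halofuginone. Bmf lay between 6.76 and 8.86 CPM with thapsigargin alone and at 0.486 CPM or less in every Perk-null library given thapsigargin with either compound, which is under the highest DMSO library. Bmp4 lay between 24.9 and 47.3 CPM with thapsigargin alone and between 5.03 and 16 CPM in the combinations. The order was the opposite for Ifit1, at 23.4 to 45.4 CPM with thapsigargin alone and 54.4 to 103 CPM in the combinations.

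**Figure D4:**
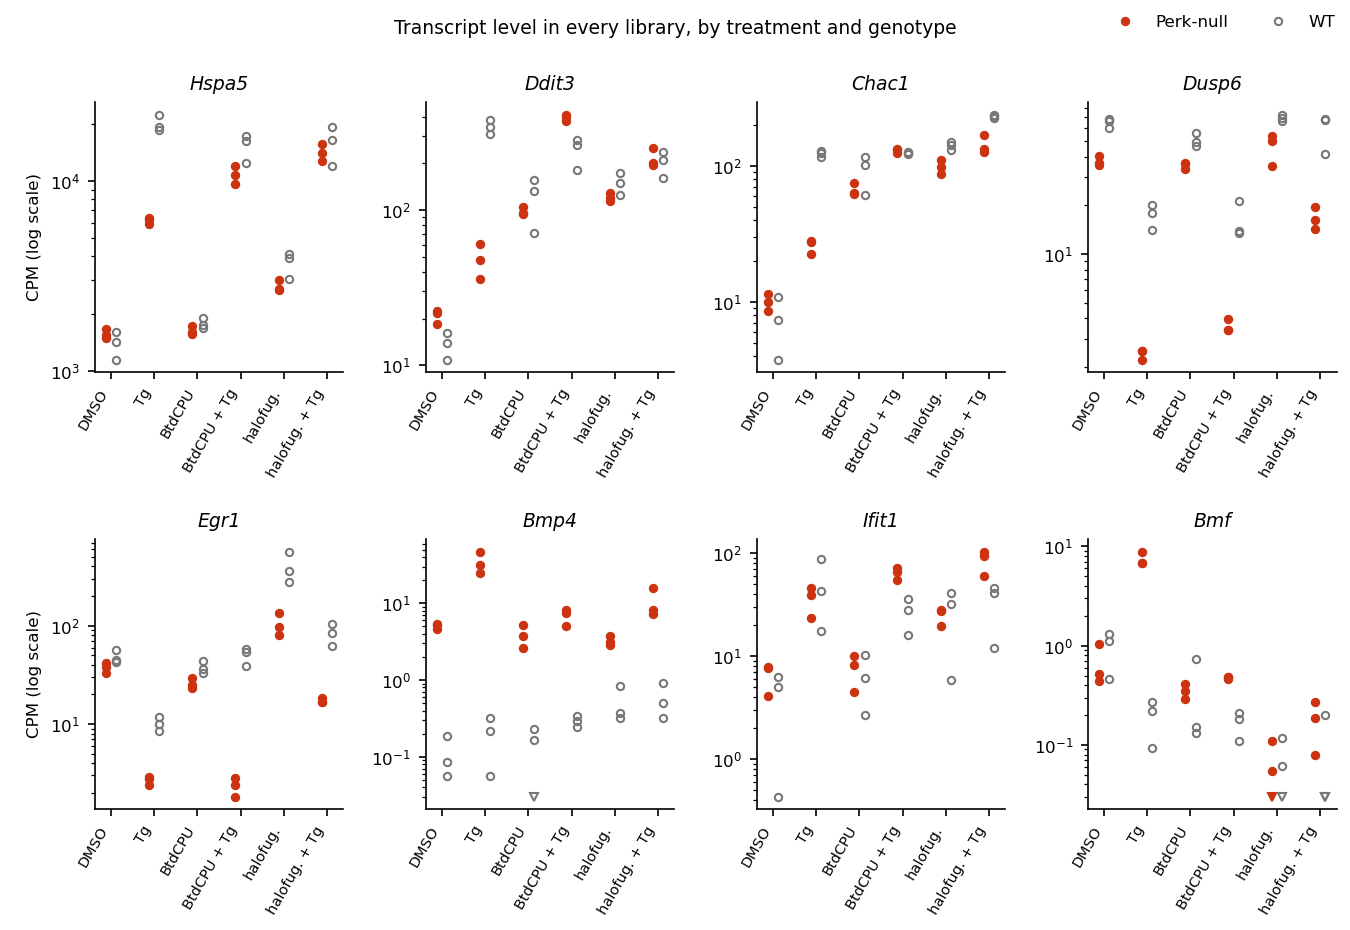
Level of 8 genes in all 36 libraries, in CPM on log axes, by treatment (Tg is thapsigargin), with Perk-null libraries as filled red circles and WT libraries as open grey circles; a triangle at the bottom marks a library at 0. In Perk-null cells Bmf and Bmp4 are highest with thapsigargin alone, and Ddit3 and Chac1 are higher in every group given BtdCPU or halofuginone than with thapsigargin alone.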

How the data were processed

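RNA was sequenced from 36 fibroblast libraries, and 1 table of estimated counts per gene was deposited by the authors. Per the submitters' processing notes the build was GRCm39 and DESeq was used. The aligner, the counter and the use of strand in counting are not given in the sources used here. Of the deposited values 50.6% were the placeholder 0.025, set to 0 here, and 2.69% of the others were not whole and were rounded. The 27 entries whose names had become dates (0.206% to 0.278% of counts) were left out, and 39 repeated symbols were summed, leaving 36856 symbols.

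Counts were normalised by TMM and fitted with edgeR 4.0.16 (R 4.3.3) by the quasi-likelihood test on 12 group means over all 36 libraries, with filterByExpr, and p-values were adjusted by the Benjamini-Hochberg method over 16065 genes. The SE is the log2 fold change divided by the square root of F. Alternatives were DESeq2 1.42.0, library size scaling, no filter, only the compared groups, a replicate block and leaving out libraries. Total counts limit precision through counting error, which is small beside the spread between replicates for all but low genes.

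The members and lists were chosen with earlier results of these data known. Named genes are fixed readouts, the 8 largest rises and falls, the 4 largest positive and negative interactions and, per list, up to 4 called members in each direction and the first 4. Creld2, Dnajc3, Pdia6, Isg15, Ero1l and Txndc5 lie outside this rule and, like the 2 lists on FOXO and the circadian clock, were chosen after their values were seen. Promoters were read from RefSeq on GRCm38.p6. Since use of strand is not known, reads of overlapping genes can also be among the counts of Fkbp14, Pdia6, Txndc5, Syvn1, Slc6a9, Slc16a3, Tm7sf2, Scd2, Plk3, Egr2, Ccl5, Bak1, Tapbp, Tcf7l1, Cryab, Loxl3 and Eif2ak1. Some genes named by the rule are not reported here.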

Additional observations from a re-analysis of the deposited data

Results flagged for a closer look

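The response to thapsigargin differed between Perk-null and WT cells, by the interaction of genotype and treatment in the edgeR fit, for 6124 of 16065 tested genes. The values below are that difference on the log2 scale for named genes, Perk-null response minus WT response, each past an edgeR adjusted p of 0.05. A difference between genotypes and one between cell lines cannot be told apart.

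For genes of ER folding and degradation it was -1.88 for Hspa5, -1.63 for Sdf2l1, 1.96 for Fkbp14, -2.38 for Herpud1 and -2.29 for Dnajb9. For ER stress sensor genes it was -2.47 for Atf6 and -1.52 for Ern1. For targets of decay by IRE1 it was 3.19 for Scara3, 1.79 for Bloc1s1 and 2.17 for Pmp22. For ISR genes it was -1.66 for Atf4, -3.46 for Ddit3, -2.67 for Chac1, -1.83 for Asns, -0.81 for Slc3a2, -3.80 for Stc2 and -5.39 for Atf3. For genes of ERK feedback, early response and YAP it was -2.04 for Dusp6, -3.92 for Etv5, -1.56 for Egr1, -2.52 for Fosl1 and -2.28 for Ctgf. For genes with a large rise in Perk-null cells it was 2.69 for Lrrc17, 2.83 for Dbp and 2.77 for Ntn4. For inflammatory genes it was -3.41 for Lif and -2.76 for Ptgs2. For lipid and matrix genes it was 1.09 for Fdps, 2.24 for Acss2 and 1.40 for Col1a2. For growth arrest and cell death genes it was 3.10 for Trp53inp1, 3.29 for Gas1, 5.75 for Bmf (at most 1.32 CPM in WT DMSO libraries), 2.01 for Bcl2l11 and 3.2 for Ccng2. For the other genes with the most positive or negative difference under the naming rule it was -6.14 for Mmp13, -5.49 for Arid5a, -5.17 for Avil, 3.85 for 5430435G22Rik and 3.56 for Mfap2.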

How the results depend on the processing

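Thapsigargin called 4487 genes in Perk-null cells as reported, 4827 with DESeq2, 4461 without TMM, 4193 with no filter, 5694 when the fit held only the compared groups and 3266 to 3889 without 1 library. Without replicate 3 of both Perk-null groups, chosen after the data were seen, it called 2721, with 1397 higher and 1324 lower, from 2 libraries a group. Of the 4487 genes, 4416 were called the same way by DESeq2. The interaction called 5531 to 5886 genes without 1 library, against 6124, and WT cells 6683 to 7076, against 7647. No endothelial marker could be tested when the fit held only the compared groups.

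The labels name no batch, so the main fit did not pair samples by replicate number. Deviations of same-numbered Perk-null libraries correlated at 0.068, 0.101 and 0.166, and of WT libraries at 0.041, 0.201 and 0.279. These were not over 0.1 in every pair, and whether replicates were made in pairs is not known. Every Perk-null library correlated best with its own number, a hint from the data and not the design, while WT DMSO replicate 1 correlated at 0.069 with thapsigargin replicate 2. With a replicate block 6071 genes were called in Perk-null cells, 9012 in WT cells and 7670 by the interaction, and 4484 of the 4487 genes were called the same way.

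Of 178 named genes, 152 kept direction and call in the 12 alternatives, 18 lost the call, 5 gained it and 3 changed sign in at least 1. The 5 gained calls are those of Sec61b, Atf6, Avil, Mfap2 and Ero1l. Of 44 interactions examined, 3 gained a call, those of Xbp1, Bmp4 and Ifit1 (-1.18 with no filter and -1.24 with the block). The sign changes concern values that did not pass. Over the fits without 1 library, Ern1 ranged from -0.15 (without DMSO replicate 2) to 0.059 (without DMSO replicate 1), Bloc1s1 from -0.095 (without thapsigargin replicate 2) to 0.19 (without DMSO replicate 2), and Asns from -0.029 (without DMSO replicate 3) to 0.18 (without thapsigargin replicate 3). The interaction of Eif2ak3 ranged from -0.12 without Perk-null thapsigargin replicate 3 to 0.13 without WT thapsigargin replicate 3. The cause was not tested.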

Other observations

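The values in this section concern 2 gene lists drawn up after the values were seen, so their counts are a description. Of 34 tested genes linked to FOXO transcription factors, which act in starved or growth factor-deprived cells, 23 rose and 0 fell in Perk-null cells. The shares over all tested genes were 15.2% and 12.7%. The median of the list was 0.60, beside 0.05 over all tested genes. In WT cells 11 rose and 10 fell, where 24.9% of all tested genes rose and 22.7% fell. Trp53inp1, Bmf and Ccng2, whose rises in Perk-null cells are described above, are in this list. Trp53inp2, an autophagy protein, stood at 2.24, 1.54 and 2.85 CPM in DMSO and at 6.77, 8.40 and 12.6 CPM in thapsigargin libraries. It rose by 2.06 without overlap of the groups (edgeR adjusted p = 1.3e-06).

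Of 21 circadian clock genes 5 rose and 3 fell, beside 15.2% and 12.7% of all tested genes. The number of rises was 3 without DMSO replicate 1 or 2 or any single thapsigargin library. Output and repressor genes were among the rises, with Dbp at 2.51, Per3 at 1.16 and Per1 at 0.85. Per3 was not called without replicate 3 of both groups (1.04). Arntl (BMAL1), an activator of the clock, stood at 19.3, 19.2 and 20.3 CPM in DMSO and at 11.5, 11.8 and 11.5 CPM in thapsigargin libraries, a change of -0.76. Its partner Clock fell by 0.51, with reads of Gm7467 possibly among its counts, and the repressor gene Cry1 by 0.77.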
